A study of Mus musculus with 6 samples.

Results

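Embryonic globins and other genes of the red-cell lineage were examined in the brains of mouse embryos that lack a DNA repair enzyme. The 9 genes listed were Hbb-y, Hba-x, Hbb-bh1, Alas2, Klf1, Gata1, Ahsp, Epb42 and Slc4a1. They were chosen by name as globins and red-cell genes, and picked from genes whose difference between the genotypes was already known, Hbb-y and Hba-x being the highest values among them. Their differences are therefore described here and not tested. An array row was used where the platform annotation named a member and no other gene. This gave 1 row for each of 8 members, out of 21789 rows that name a single gene and 28856 rows in all, and Ahsp was not analysed here. RNA came from the whole brain, from olfactory bulb to brain stem, of 3 embryos labelled Tdp2Δ1-3 and 3 labelled wild-type, all at embryonic day 16.5, with 1 Affymetrix Mouse Gene 1.0 ST array per sample. Tdp2Δ1-3 is a deletion of exons 1 to 3 of Tdp2, whose product removes trapped topoisomerase II from the ends of DNA breaks. The labels say that treatment does not apply, give no strain, litter or sex, and call the arrays of a genotype biological replicates.

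Haemoglobin is built from alpha-like and beta-like globin chains, each encoded in a gene cluster. In the mouse the first red cells arise in the yolk sac and use the embryonic chains, Hba-x of the alpha type and Hbb-y and Hbb-bh1 of the beta type. Red cells made later in the fetal liver use the adult chains, and the embryonic genes are silenced in them by factors such as Bcl11a and Sox6. The brain itself makes no red cells, and the vessels of a dissected brain can hold blood. In bulk RNA, fewer cells of a type and less RNA per cell cannot be told apart.

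Hbb-y and Hba-x lie in different clusters, on chromosomes 7 and 11, and were the members with large differences. The 250 bases before their starts are therefore shown. Those of Hbb-bh2, a beta-like gene in the cluster of Hbb-y with a small difference of 0.10, are shown with them. The sequences are from RefSeq, build GRCm38.p6, 5′ to 3′ on each gene's own strand. They are chr7:103853208-103853457 on the minus strand for Hbb-y, chr11:32276350-32276599 on the plus strand for Hba-x and chr7:103840522-103840771 on the minus strand for Hbb-bh2. Capitals mark CACCC, the box bound by Klf1 and its relatives, GATAA, a core bound by Gata1, CCAAT, and ATAAA, which is part of many TATA boxes, each on either strand, so that TTATC is GATAA on the other strand. GATAA and ATAAA can overlap.
Hbb-y: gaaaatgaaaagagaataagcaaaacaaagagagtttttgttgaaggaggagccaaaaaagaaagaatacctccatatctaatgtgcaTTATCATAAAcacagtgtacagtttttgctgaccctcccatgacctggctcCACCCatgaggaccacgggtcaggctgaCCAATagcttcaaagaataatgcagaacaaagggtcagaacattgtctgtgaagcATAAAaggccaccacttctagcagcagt
Hba-x: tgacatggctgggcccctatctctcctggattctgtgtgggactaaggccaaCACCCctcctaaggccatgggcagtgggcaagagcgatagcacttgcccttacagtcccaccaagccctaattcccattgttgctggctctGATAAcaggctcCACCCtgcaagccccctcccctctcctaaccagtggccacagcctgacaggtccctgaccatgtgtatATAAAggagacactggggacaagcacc
Hbb-bh2: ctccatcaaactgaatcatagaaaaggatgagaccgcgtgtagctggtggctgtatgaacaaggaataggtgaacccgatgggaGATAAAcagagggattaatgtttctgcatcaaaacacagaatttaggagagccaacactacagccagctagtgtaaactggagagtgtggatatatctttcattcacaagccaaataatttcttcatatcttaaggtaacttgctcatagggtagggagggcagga

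The Hbb-y and Hba-x windows both held CACCC and GATAA, and both held ATAAA just before the start. In Hbb-y the matches began 111 bases before the start for CACCC, 162 for GATAA, 83 for CCAAT, and 157 and 28 for ATAAA. In Hba-x they began 198 and 95 bases before the start for CACCC, 107 for GATAA and 27 for ATAAA, and CCAAT was not in this window. Hbb-bh2 held GATAA at 166 and ATAAA at 165 bases. These letters are common. Of 32851 RefSeq windows of the same length, 52.0% held CACCC, 22.6% GATAA, 33.8% CCAAT and 37.3% ATAAA, and 2.16% held all 4, as the Hbb-y window did. Of the members without a large difference, windows were at hand for Alas2, Klf1, Gata1 and Epb42. Alas2 held 3 CACCC, 1 GATAA and 2 ATAAA matches, Klf1 held 1 CACCC, 1 GATAA and 1 CCAAT match, Gata1 held 2 CACCC matches, and Epb42 held 1 GATAA and 1 ATAAA match. CACCC and GATAA thus stood together also before Alas2 and Klf1, whose values hardly differed.

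Values are log2 values normalized by the authors and centred so that the median of each row over the 6 arrays is 0. Differences between arrays are kept and the level of a gene is lost, so no gene's level is set against another's, and whether a row lay near background or saturation cannot be told. For the same reason the labelled tissue could not be checked by the level of its markers. Where the 3 mutant values all lie above the 3 wild-type values, centring makes the lowest mutant and the highest wild-type value mirror images around 0. Array medians lay between -0.011 and 0.014. Tdp2 was at -1.05, -0.90 and -0.94 in mutant replicates 1 to 3, against 0.90, 1.10 and 1.34 in the wild types, so it was lower in every brain labelled mutant. With 3 arrays a genotype, the number of arrays sets the precision.

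Among the globin chains, Hbb-y, the embryonic epsilon-type beta globin, was far higher in the mutant brains. Its values were 1.78, 1.77 and 1.91 in mutant replicates 1, 2 and 3, against -2.18, -1.77 and -1.96 in wild-type replicates 1, 2 and 3. The lowest mutant brain stood 3.55 above the highest wild-type brain, an 11.7-fold step. The means were 1.82 ± 0.08 in mutants and -1.97 ± 0.20 in wild types (SD, n = 3 each), a difference of 3.79 ± 0.10 (limma's moderated SE), or 13.8-fold. The spread within genotypes was wider in the wild types, and 94.6% of all rows tested had a smaller pooled SD than the 0.15 of Hbb-y. The difference was the highest of all 23410 rows tested.

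Hba-x, the embryonic zeta-type alpha globin and the partner chain of Hbb-y in embryonic haemoglobin, differed in the same direction. It was at 0.79, 0.62 and 0.75 in the mutant brains and at -0.62, -0.70 and -0.84 in the wild-type brains. The groups were 1.25 apart at their nearest, a 2.37-fold step, and the means differed by 1.44 ± 0.07 (SE), or 2.72-fold. The mutants spread by an SD of 0.09 and the wild types by 0.11. Ranked by signed difference, only Hbb-y and Xist stood above Hba-x among all rows tested. The order of the brains within a genotype was not shared by the embryonic pair. Mutant replicate 3 was highest for Hbb-y and replicate 1 for Hba-x, and wild-type replicate 1 was lowest for Hbb-y but highest among the wild types for Hba-x.

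Hbb-bh1, the other embryonic beta-like globin, gave a small difference. Its values were 0.06, 0.03 and 0.09 in mutants, against -0.03, -0.13 and -0.09 in wild types, so the groups did not overlap but were 0.05 apart. The difference was 0.14 ± 0.05 (SE), or 1.10-fold. Within each genotype Hbb-bh1 and Hbb-y ranked the mutant brains alike, and ranked the wild-type brains differently.

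**Figure D1:**
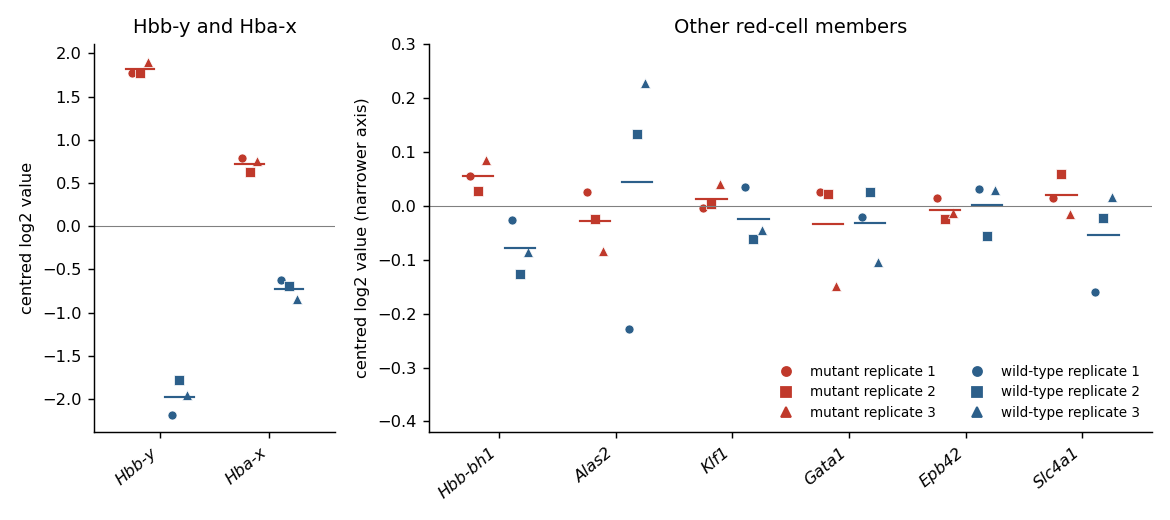
Centred log2 value of the 8 measured members in each array, mutants left of wild types, with a bar at each mean (n = 3 each). The panels have different vertical scales. Hbb-y and Hba-x separate the genotypes by 3.55 and 1.25, and the other members lie between -0.23 and 0.23.

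The red-cell enzyme, membrane and regulator genes among the members did not separate the genotypes. Alas2, the erythroid enzyme that starts haem synthesis, was at 0.03, -0.03 and -0.08 in mutants and at -0.23, 0.13 and 0.23 in wild types. All 3 mutants thus lay inside the wild-type range, and the difference was -0.07 ± 0.11 (SE). Alas2 was also the member with the widest spread, with an SD of 0.24 among wild types and of 0.05 among mutants, and 97.1% of rows had a smaller pooled SD.

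Slc4a1 encodes band 3, the anion exchanger of the red-cell membrane. It was at 0.01, 0.06 and -0.01 in mutants and at -0.16, -0.02 and 0.02 in wild types, a difference of 0.07 ± 0.06 (SE). Wild-type replicate 1 was low and the other brains overlapped. Epb42 encodes protein 4.2, which ties band 3 to the membrane skeleton. Its values were 0.01, -0.03 and -0.01 in mutants, against 0.03, -0.06 and 0.03 in wild types, a difference of -0.01 ± 0.04 (SE).

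Klf1, the erythroid activator of the adult beta globin gene, was at 0.00, 0.00 and 0.04 in mutants and at 0.04, -0.06 and -0.05 in wild types. Mutant replicate 3 and wild-type replicate 1 were its highest brains, and the difference was 0.04 ± 0.05 (SE). Gata1, the master regulator of red-cell and platelet precursors, was at 0.02, 0.02 and -0.15 in mutants and at -0.02, 0.03 and -0.10 in wild types. Its difference was -0.0018 ± 0.06 (SE), and replicate 3 was the lowest brain of each genotype. Gata1 and Alas2 lie on the X chromosome, and the mutant arrays differed in sex-linked genes. Xist, the RNA of the inactive X, was at -0.03, 1.17 and 6.27 in mutants and between -0.09 and 0.00 in wild types. The Y-linked genes Kdm5d, Eif2s3y and Uty were at -2.84, -4.32 and -3.30 in mutant replicate 3 and between -0.07 and 0.20 in every other brain. Mutant replicate 2 thus had raised Xist with Y-linked values like those of the wild types. The part of sex in the values of the members was not tested.

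By the call used for all rows, an adjusted p under 0.05, 2 of the 8 members were called higher, Hbb-y and Hba-x, and 0 lower. The shares of all 23410 rows were 2.34% higher and 4.13% lower. In 3 of 8 members all mutant brains lay above all wild-type brains, as in 13.1% of all rows, and in the other 5 the genotypes overlapped. Since the members were picked with these differences known, nothing is read from those counts.

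The remaining globin rows and the genes beside the members were read next. Whether these rows lay near background is unknown, so they cannot show how far the difference reached along the clusters. Hbb-bh2 was at 0.03, 0.00 and 0.01 in mutants and at 0.00, -0.14 and -0.10 in wild types, a difference of 0.10 ± 0.05 (SE; limma adjusted p = 0.28). Its groups did not overlap, with the lowest mutant at 0.0042 and the highest wild type at -0.0042. The theta-like genes Hbq1b and Hbq1a of the alpha cluster differed by -0.03 and 0.01 (limma adjusted p = 0.87 and 0.97). Of the 5 protein-coding genes on each side of Hbb-y, 7 others had a row of their own, and none was called by limma in either direction, with differences from -0.01 to 0.10. Most of them are olfactory receptor genes. Of those around Hba-x, 8 had a row of their own and none was called by limma, with differences from -0.16 to 0.08. Nprl3, whose introns hold the enhancers of the alpha-globin genes, differed by 0.04, and Mpg, a DNA glycosylase gene beside it, by 0.04. Over the neighbours of all 8 members, 58 genes were measured, with a median of -0.01, and 2 were called. Rnaseh2a, 4 places from Klf1 in gene order, rose by 0.32 ± 0.06 (SE, limma adjusted p = 0.028). Wdr13, 4 places from Gata1, fell by 0.22 ± 0.05 (SE, limma adjusted p = 0.048). The call of Rnaseh2a ended on leaving out mutant replicate 2, mutant replicate 3 or wild-type replicate 2, and that of Wdr13 on leaving out any array or on testing all rows.

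**Figure D2:**
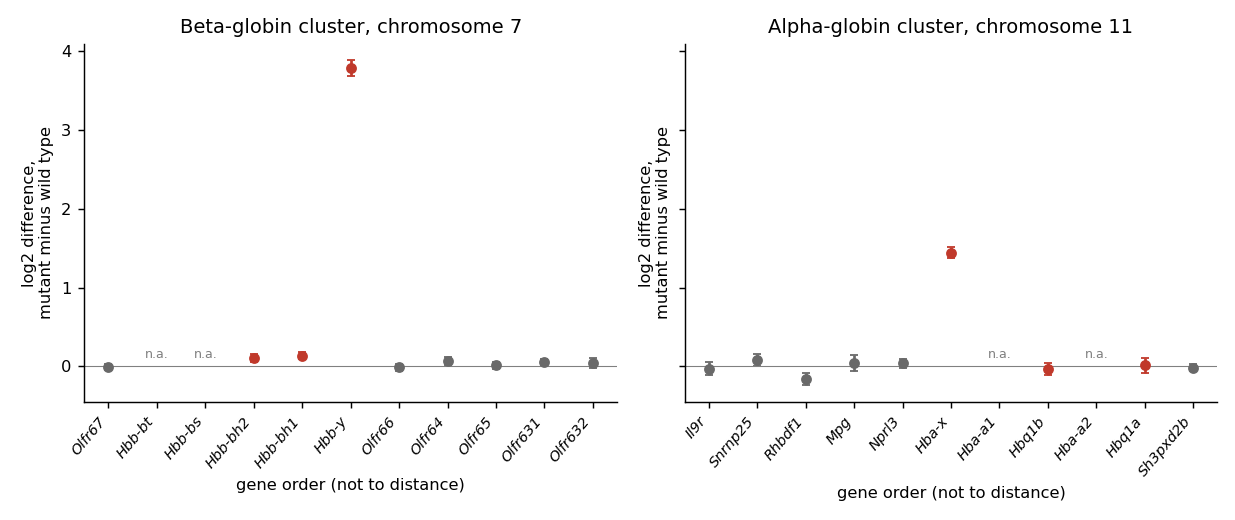
Log2 difference, mutant minus wild type, of Hbb-y (left) and Hba-x (right) and the 5 protein-coding genes on each side in gene order, with limma's SE; globin genes are red, and n.a. marks genes with no row of their own. Hbb-y at 3.79 and Hba-x at 1.44 stand alone, and the measured neighbours lie between -0.16 and 0.14.

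The adult globin genes are too alike for the platform to name them singly. The 2 rows annotated jointly to adult alpha genes and the 2 annotated jointly to adult beta genes were read as rows, with no value given to any one gene. The alpha rows ran from -0.04 to 0.01 in mutants and from -0.06 to 0.04 in wild types. The beta rows ran from -0.04 to 0.04 in mutants and from -0.10 to 0.08 in wild types. Their differences were between -0.02 and -0.01, with SEs from 0.04 to 0.06, and their lowest limma adjusted p was 0.87. The mutants lay inside the wild-type range in all 4 rows. Whether these rows were near saturation cannot be told, so they do not give the amount of blood. Wild-type replicate 1 was the lowest brain in all 4 rows, and also for Alas2, Slc4a1 and Hbb-y, but not for the other members.

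**Figure D3:**
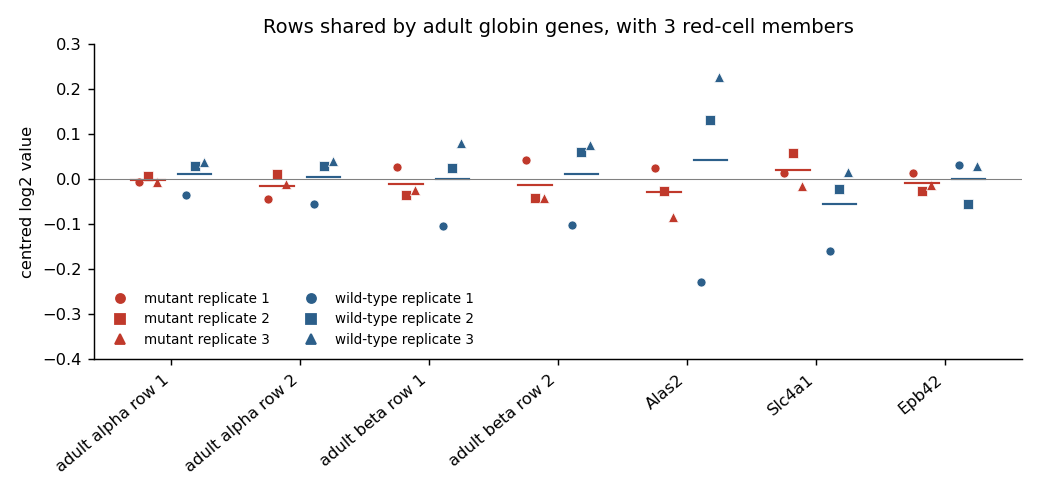
Centred log2 value by array of the 4 rows that adult alpha or adult beta globin genes share, with Alas2, Slc4a1 and Epb42, mutants left of wild types and a bar at each mean (n = 3 each). The genotypes overlap in every row, and wild-type replicate 1 is the lowest brain in all but Epb42.

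Genes that accompany red cells were then taken from 5 lists. They covered transcription factors and receptor signalling, membrane and skeleton, haem synthesis, iron, and other red-cell proteins, and many of their genes are also active in brain cells. Of 87 listed genes 82 were measured. By limma 1 was called higher and 2 lower, the median difference was -0.01 against 0.01 over all rows tested, and 39 were positive and 43 negative, where 56.8% of all rows were positive. The share of all rows called was 2.34% higher and 4.13% lower, as above. At an unadjusted p under 0.05, 17 of the 82 passed, as did 21.8% of all rows, the share beside which every unadjusted count of a list is to be read.

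Regulators and receptor genes held 1 call among 20. Ikzf1, a lymphoid and erythroid zinc finger factor, was at -0.14, -0.08 and -0.27 in mutants and at 0.09, 0.08 and 0.11 in wild types, and fell by 0.26 ± 0.05 (SE; limma adjusted p = 0.033). Tal1, a partner of Gata1, differed by 0.15 (adjusted p = 0.15) and Epor, the erythropoietin receptor gene, by 0.11 (adjusted p = 0.27). Among 17 measured membrane and skeleton genes, Slc43a1, an amino acid transporter gene, rose by 0.27 ± 0.05 (SE; limma adjusted p = 0.022), and Ank1, erythroid ankyrin, which is also made in brain, fell by 0.28 ± 0.07 (SE; limma adjusted p = 0.048). Each of these 3 calls depended on single arrays. Leaving out any array other than mutant replicate 1 ended the call of Ikzf1. Mutant replicates 2 and 3 were each needed for the calls of Slc43a1 and Ank1, as were wild-type replicates 2 and 3 for Slc43a1 and 1 and 2 for Ank1. Testing all rows also ended the call of Ank1.

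The uncalled genes of the 5 lists ran both ways, between -0.33 for Sptb, the red-cell spectrin beta chain gene (limma adjusted p = 0.094), and 0.23 for Urod, a haem synthesis enzyme gene (limma adjusted p = 0.057). Ermap, an erythroid membrane protein gene, was at 0.05, 0.21 and 0.08 in mutants and at -0.05, -0.12 and -0.07 in wild types, a difference of 0.20 without a call (limma adjusted p = 0.074). The groups did not overlap. None of 17 other red-cell protein genes passed by limma and 2 passed unadjusted, among them Tmcc2 at -0.29 (adjusted p = 0.099). Sptb, Rhag, Hemgn, Trim10 and Car1 were chosen for their known place in red cells, with earlier results of these data known. They do not stand for the lists. Rhag, a Rhesus complex gene, differed by 0.05, Hemgn, an erythroid nuclear protein gene, by 0.03 and Trim10, an erythroid ligase gene, by 0.01. Car1, the red-cell carbonic anhydrase gene, was at 0.00, 0.01 and 0.00 in mutants and at 0.02, -0.15 and -0.15 in wild types, a difference of 0.10 (adjusted p = 0.38). None of 13 haem synthesis genes passed by limma, and 3 passed unadjusted. None of 15 iron genes passed by limma either, with 4 passing unadjusted and Erfe, the erythroblast hormone erythroferrone, at 0.19 (adjusted p = 0.11). In 31 of the 82 genes mutant replicate 3 was the lowest brain, against 5 to 14 for each other array. It was also the lowest in 8 of 13 neuron genes, and in 0 of 19 cycling cell genes. The share over all rows was not counted, so this is not read as a trait of red-cell genes.

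Free haem and haemoglobin are cleared by scavengers and haem oxygenase. Of 9 genes of haem breakdown and scavenging, Slc48a1, a haem transporter gene, fell by 0.20 ± 0.05 (SE; limma adjusted p = 0.039), a call that needed every array except mutant replicate 1. The other 8 did not pass, among them Lrp1 at -0.24 (adjusted p = 0.064) and the haemoglobin scavenger receptor gene Cd163 at -0.06 (adjusted p = 0.57). Of the globins of other cells, cytoglobin (Cygb) was lower in every mutant brain, at -0.03, -0.19 and -0.38 against 0.11, 0.03 and 0.05 in wild types, without passing (difference -0.27, limma adjusted p = 0.097). Neuroglobin (Ngb) differed by -0.08 (adjusted p = 0.46).

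**Figure D4:**
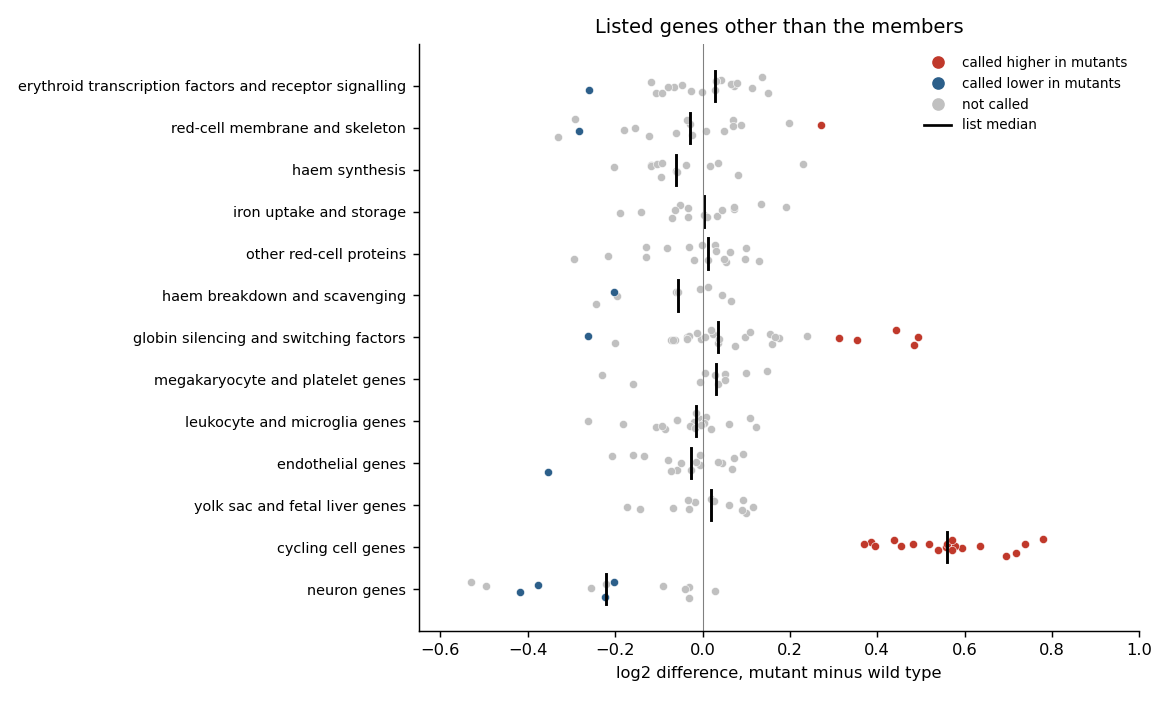
Log2 difference, mutant minus wild type, of each measured gene of 13 lists, with genes called by limma at an adjusted p under 0.05 in red (higher) and blue (lower), the rest in grey, and a bar at the median of each list. Red-cell and blood lists have medians between -0.06 and 0.03, and the cycling cell list has a median of 0.56.

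Factors known to silence or switch globin genes were taken as a further list. This list was chosen with earlier results of these data known, so its counts are a description only. Of 28 measured, 5 were called higher and 1 lower by limma, with a median of 0.04, against 2.34% and 4.13% of all rows. Without mutant replicate 2, 2 were called higher and 0 lower. Without wild-type replicate 2, 3 were called higher and 0 lower. Igf2bp1 and Igf2bp3, RNA-binding proteins of the fetal program that raise fetal globin in human erythroid cells, rose by 0.48 ± 0.05 and 0.49 ± 0.07 (SE; limma adjusted p = 0.0044 and 0.010). Igf2bp1 was at 0.24, 0.33 and 0.21 in mutants and at -0.21, -0.22 and -0.25 in wild types. Hmga2, a chromatin protein gene of the same fetal program, rose by 0.44 ± 0.05 (SE; limma adjusted p = 0.0054), with 0.25, 0.28 and 0.17 in mutants and -0.25, -0.17 and -0.20 in wild types. Hdac1, a histone deacetylase of repressor complexes, rose by 0.35 (adjusted p = 0.013), and Nfia, a nuclear factor I gene, by 0.31 (adjusted p = 0.025). Nfix, of the same family, fell by 0.26 (adjusted p = 0.019).

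Igf2bp1 and Hmga2 passed with any 1 array left out. Igf2bp3 lost its call without mutant replicate 2, and Hdac1 without mutant replicate 2 or wild-type replicate 2. The call of Nfix needed mutant replicates 2 and 3 and wild-type replicates 1 and 2, and that of Nfia every array except mutant replicate 1. Nfia, Igf2bp1 and Hdac1 had a second row each, at 0.23 without a call for Nfia, and at 0.30 and 0.36 with a call for Igf2bp1 and Hdac1.

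The best known silencers of embryonic globins in the mouse did not pass. Their values, given for that role and outside the naming rule, were -0.02, -0.06 and -0.04 in mutants and 0.02, 0.03 and 0.05 in wild types for Bcl11a (difference -0.07, limma adjusted p = 0.35). Sox6 was at 0.00, 0.31 and 0.26 in mutants and at -0.10, 0.00 and -0.05 in wild types (0.24, adjusted p = 0.13). Myb differed by 0.16 (adjusted p = 0.092), Zbtb7a by 0.02 and the DNA methyltransferase gene Dnmt1 by -0.0025. Lin28b, listed as a switching factor and not as a silencer, and also outside the naming rule, differed by -0.04. These genes are also made by neurons or dividing progenitors of the embryonic brain, and whether any of these values came from red cells was not tested. The cycling cell and neuron lists were chosen with earlier results of these data known, so their counts only describe them. In the same arrays limma called 19 of 19 measured cycling cell genes higher (median 0.56), against 2.34% of all rows. A second row of Top2a, one of the 19, was at 0.04 without a call. Of 13 neuron genes 12 had a negative difference (median -0.22) and 4 were called lower, against 4.13% of all rows. The part of these cell types in the changed factors was not tested. Without mutant replicate 2, 2 cycling cell genes were called higher and no neuron gene was called lower. No neuron gene was called lower without wild-type replicate 1 or 2 either.

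**Figure D5:**
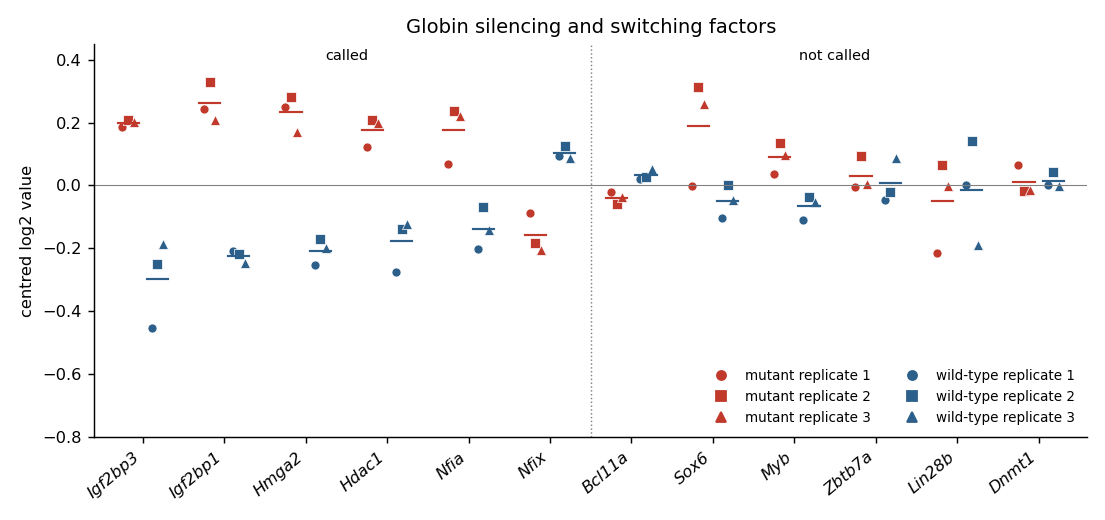
Centred log2 value by array of the 6 globin silencing and switching factors called by limma (left of the dotted line) and of 6 that were not, mutants left of wild types and a bar at each mean (n = 3 each). In the 6 called genes the genotypes do not overlap, and Bcl11a is slightly lower and Myb slightly higher in all mutants.

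Other blood and vessel cells were looked for by their markers. None of 10 platelet genes and none of 21 leukocyte and microglia genes passed by limma, with 1 and 2 passing unadjusted, against 21.8% of all rows. List medians by array ran from -0.02 to 0.00 in mutants and from -0.07 to 0.03 in wild types for platelets, and from -0.05 to 0.01 in mutants and from -0.02 to 0.04 in wild types for leukocytes. The platelet factor gene Pf4 was at -0.02, -0.11 and 0.00 in mutants and at 0.00, 0.25 and 0.31 in wild types (adjusted p = 0.14). Of 17 endothelial genes Cldn5 fell by 0.35 ± 0.07 (SE; limma adjusted p = 0.024) and the others did not pass, with a list median of -0.03, a call that needed mutant replicates 2 and 3 and wild-type replicates 1 and 2. Of 13 genes of yolk sac and fetal liver none passed by limma and 1 passed unadjusted, against the same 21.8%. Afp, made by both tissues, was at 0.06, 0.09 and 0.02 in mutants and at -0.02, -0.02 and -0.08 in wild types (difference 0.10, adjusted p = 0.23).

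Genes like Hbb-y or Hba-x were sought by the order of the 6 arrays. Among 21788 other single-gene rows 45 ranked the arrays exactly as Hbb-y did, and the largest differences among them belonged to Pdlim1 (0.51), Dsn1 (0.36), Chek2 (0.35), Ss18 (0.27) and Cdk2ap1 (0.24). The order of Hba-x was shared by 31 rows, led by Hsd3b6 (0.23), Nkd1 (0.20), Olfr513 (0.19), Sprr2e (0.18) and Zbtb17 (0.18). All lay below the 3.79 of Hbb-y and the 1.44 of Hba-x, which were picked with their large differences known. Ss18, Nkd1, Olfr513 and Sprr2e were not called by limma. No member or listed red-cell gene was among the 10. How many rows would share an order by chance was not worked out, so nothing is read from these counts.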

How the data were processed

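RNA of 6 brains was measured on Affymetrix Mouse Gene 1.0 ST arrays. The deposited values are log2 values that the authors normalized with Robust Multi-Array Average, per the series text. Affymetrix Expression Console is the tool in the submitters' processing notes. The table states no log base, RMA gives log2, and each row's median was 0 to within 5e-07, a step no source describes. The sources used here give neither a genome build nor the level of probe summary.

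Of 28856 rows 21789 named 1 gene, 1621 several and 5446 none. Symbols were updated by gene identifier through RefSeq (GRCm38.p6), which held 21698 single-gene rows. A gene with several rows was read from the row with most accessions. The 23410 rows that name a gene were fitted with limma 3.58.1 in R 4.3.3 (lmFit, eBayes, two-sided, Benjamini-Hochberg) and called at an adjusted p under 0.05. The fit was also run on simulated data with independent noise and shifts larger than most differences called here. That run does not show how well smaller differences are found.

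Genes named were the members, Tdp2, called list genes and the 3 of smallest p in each list, cell type markers, the neighbours and up to 5 genes of the same array order. The members and lists were chosen with earlier results of these data known. Nothing says the brains came from separate litters, so p-values measure the spread between these samples. The fit was repeated with cyclic loess, with arrays centred on their medians, with array weights, with a robust variance prior, with unnamed rows included, without each array, with a block for the replicate number, and with the 1.5-fold limit of the series text. Figures were drawn with matplotlib 3.10.9.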

Additional observations from a re-analysis of the deposited data

How the results depend on the processing

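The differences of Hbb-y and Hba-x kept their sign and stayed within 1 SD under all 12 alternative fits, except that Hbb-y was 3.99 with cyclic loess. Hbb-y ran from 3.64 to 3.99 and Hba-x from 1.38 to 1.49 over these fits. Both stayed called in each, and with array weights 3 members were called higher. Of 96 recomputed member values 95 lay within 1 SD. Alas2 ran from -0.21 to 0.02, Gata1 from -0.04 to 0.06 and Epb42 from -0.04 to 0.02, so their signs are not settled. Each member had a single row, so the choice among rows could not be tried.

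With the replicate number as a block, 904 rows were called higher and 1496 lower, 2 red-cell genes higher and 4 lower. Deviations of same-numbered arrays correlated at 0.21, 0.05 and 0.20, mutant replicate 2 correlated best with another number, and the labels do not say that a number marks a pair. With array weights 2644 rows were higher and 2781 lower, 8 red-cell genes were higher and 11 lower, and 9 switching factors were higher and 2 lower. With all rows tested 1 red-cell gene was lower. At the 1.5-fold limit 44 rows were higher and 106 lower. With 1 array left out, rows called higher numbered 32 to 862 and rows called lower 113 to 1639, both lowest without mutant replicate 2 and highest without mutant replicate 1. Red-cell genes numbered 0 to 2 higher and 0 to 8 lower, and switching factors 2 to 6 higher and 0 to 2 lower. Of 43 genes other than members that were called and fall under the naming rule, 6 kept their call in all alternatives. The causes were not tested. Centred values set no floor, so how near background each row lay is unknown.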
